A study of Mus musculus with 3 samples.

Results

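The nuclear receptor family was examined as a set of 46 named genes, out of 27670 gene names on the array, in mouse embryonic stem (ES) cells compared with mouse embryonic fibroblasts (MEF). The 46 members were taken by their symbols from the gene name of every probe that was not a control spot, and 79 probes represent them. ES cells are pluripotent cells derived from the early embryo. MEF are mesenchymal cells grown from fetuses, and such cultures can hold other fetal cell types. The ES cells were untreated and grew in serum medium with leukemia inhibitory factor, which sustains their self-renewal. The MEF were grown in serum medium without that factor. The labels give no strain, genotype, line name, passage or feeder layer for either. Each of 3 two-colour arrays of 60-base probes received total RNA of 1 ES cell replicate, dyed with Cy3, and MEF RNA, dyed with Cy5. The design asks which genes are expressed at another level in the ES cells than in MEF.

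Nuclear receptors are transcription factors that bind DNA through a zinc finger domain and carry a pocket that, in many members, holds a steroid, thyroid hormone, retinoid, vitamin D, fatty acid or sterol. The retinoid X receptors (RXR) are the shared partners with which retinoic acid, thyroid hormone, vitamin D, PPAR and LXR receptors form dimers, and unliganded or liganded dimers recruit corepressors or coactivators. Orphan members have no agreed physiological ligand. In mouse ES cells Esrrb, Nr5a2 and Nr0b1 are known as parts of the network that sustains pluripotency, Nr6a1 (germ cell nuclear factor) is known to silence Pou5f1 during differentiation, and retinoic acid is a classic signal for leaving pluripotency.

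All ratios below are log2 of ES cells over MEF, so a receptor that is lower in ES cells has a negative value. Signals are the normalized brightness of 1 probe in each channel, and they are compared only between the channels of the same probe. A gene was tested where at least 1 of the channels was well above background for a probe on all 3 arrays, and its brightest probe stood for it. Calls required a change of at least 2-fold together with a limma adjusted p under 0.05 (Benjamini-Hochberg over 19477 genes). The labels do not say whether the 3 ES cell replicates were separate cultures, and the MEF RNA counts as 1 control, so the p-values cover array-to-array spread alone, which may be technical. Dyes were not swapped, and a bias of either dye for a single probe stays in each ratio. In bulk RNA, fewer cells of a type and less RNA per cell cannot be told apart.

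Per array, 68.6% to 70.6% of gene spots had ES cell signal well above background and 68.2% to 74.0% had such MEF signal. Any pair of arrays correlated at 0.998 in log2 ratio over 19477 genes, as a description, since genes are no replicates. The markers fitted both labels in direction. All 9 ES cell markers were called higher in ES cells, with a median log2 ratio of 4.02, among them Nanog at 4.02 and Pou5f1 at 3.75. All 10 fibroblast markers were called lower, with a median of -4.39, among them Col1a1 at -8.10. Yet the 9 ES cell markers were also well above background in MEF on every array, and the 10 fibroblast markers in ES cells. Of 10 leukocyte and macrophage markers, 9 were called lower with a median of -4.76, including Lyz2 at -6.18 and Csf1r at -5.69. The summed signal of these 10 genes was 14257 to 14888 in ES cells, against 473083 to 506453 in MEF, and none was at background in either. The MEF RNA thus carried RNA of leukocyte genes. Several receptors described here are also expressed in macrophages, and the part of such cells in the receptor ratios was not tested. Endothelial markers gave 3 called higher and 2 called lower of 5 tested, primitive endoderm markers 1 and 1 of 4, and neural markers 1 and 3 of 7. Of 6 adipocyte markers 2 were tested and none was called, while Adipoq, Plin1, Lep and Cfd were not tested.

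Of the 46 receptors, 36 were tested and 10 were too dim for the test. In ES cells 5 receptors rose and 17 fell, and 14 were not called. These counts go by the brightest probe and include Hnf4a and Rxra, whose probes disagreed. The 5 that rose are 13.9% of those tested, where 20.4% of all tested genes were called higher. The 17 that fell are 47.2%, where 22.5% of all tested genes were called lower. Calls in either direction made up 61.1% of the tested receptors and 42.8% of all tested genes. The median log2 ratio of the tested receptors was -0.73, against -0.050 for all tested genes. Without a fold minimum 35 of the 36 had an adjusted p under 0.05 (limma), where the share over all genes was 95.5%, so the fold minimum set most calls. The filter bears on these counts, since 30 of the 36 were well above background on all arrays in ES cells and in MEF alike, and the other 6 entered through 1 channel. Those 6 were Hnf4a, Nr2f1, Esr1, Thrb, Ppara and Ppard.

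**Figure D1:**
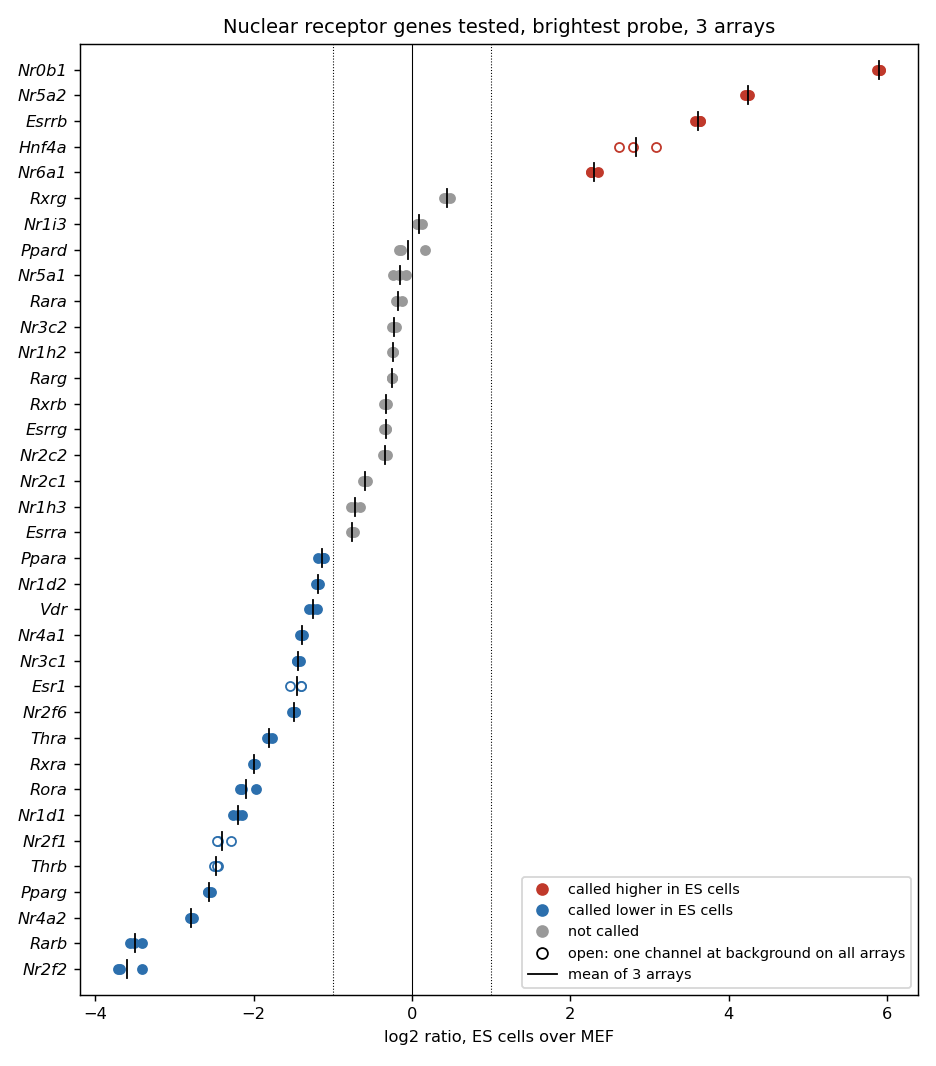
Log2 ratio of ES cells over MEF (x axis) for the 36 tested nuclear receptor genes (rows, highest ratio at the top), by the brightest probe of each. Each point is 1 of 3 arrays, the black tick is their mean, dotted lines mark the 2-fold change used for calls, and open points are genes with one channel not above background on any array. The 5 receptors that rose lie between 2.29 and 5.90, well apart from the uncalled ones, whose highest is Rxrg at 0.44, and the 17 that fell run from -1.14 to -3.60.

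By structural and functional class, the receptors that rose were Nr0b1, 3 of the 6 orphan receptors of the NR5, NR6 and estrogen-related groups, and Hnf4a of the NR2 group. By the brightest probes, no tested retinoic acid receptor, RXR, other RXR partner, clock-related receptor, steroid receptor or NR4A receptor rose. A dimmer probe of Rxra was called higher. Over all tested genes 20.4% were called higher and 22.5% lower, and no class was tested against these shares. Falls were recorded in 3 of 6 tested NR2 receptors, 1 of 3 RXR, 1 of 3 retinoic acid receptors, 5 of 9 other RXR partners, 3 of 3 tested clock-related receptors, 2 of 3 tested steroid receptors and 2 of 2 tested NR4A receptors. The spread between arrays was small beside these differences. The SD of a receptor's log2 ratio ran from 0.0022 to 0.24 with a median of 0.031, and 35 of the 36 kept 1 sign on all arrays.

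Nr0b1 (Dax1), an atypical receptor without the usual DNA-binding domain that binds and represses other receptors, showed the highest ratio of the family. Its signals were 35799.9, 37394 and 36877 in ES cells, against 608, 619 and 615 in MEF. The channels were far apart on every array and each varied little. Here and below, called receptors were chosen by a change of at least 2-fold, so separate channels largely follow from that choice. The mean log2 ratio was 5.90 ± 0.019 (SD, n = 3 arrays), a 59.7-fold higher level with an adjusted p of 1.60e-07 (limma). Nr5a2 (Lrh1), an orphan receptor known to bind regulatory sequence of Pou5f1, gave 12800.1, 12966 and 12915 in ES cells, against 693, 683 and 673 in MEF. The 2 sets of values did not overlap, and the log2 ratio was 4.24 ± 0.028, an 18.9-fold higher level (limma adjusted p = 1.60e-07). Esrrb, a constitutively active orphan related to the estrogen receptors and a core ES cell factor, had signals of 60519.7, 60258 and 60487 in ES cells, against 5073, 4824 and 4878 in MEF. Its level was 12.3-fold higher in ES cells (log2 3.62 ± 0.036), and its other tested probe gave 3.33. All 3 of these receptor genes were also well above background in MEF on every array.

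Nr6a1 also rose. Its signals were 1967, 1956 and 1905 in ES cells, against 408, 383 and 396 in MEF, with no overlap. The level was 4.91-fold higher in ES cells (log2 2.29 ± 0.049, limma adjusted p = 4.96e-07). Both the known repressor of Pou5f1 and Nr5a2, a known activator of it, were thus higher in the cells with the higher Pou5f1 level. The other orphan receptors of these groups were not called. Nr5a1 (Sf1), the steroidogenic relative of Nr5a2, had a log2 ratio of -0.16 ± 0.083. The estrogen-related receptor Esrra, a regulator of mitochondrial genes, gave signals of 6049, 5829 and 5627 in ES cells, against 10052, 9837 and 9576 in MEF. The channels did not overlap, but its log2 ratio of -0.75 ± 0.017 was under the fold minimum. That ratio was the nearest to the minimum among the uncalled receptors. A dimmer Esrra probe, above background in both channels, gave -0.093 ± 0.090, and there the channels overlapped. Esrrg, a relative of Esrra, stood at -0.33 ± 0.013 by its brightest probe. Within the estrogen-related group Esrrb alone was called by the brightest probes, while a dimmer probe of Esrrg had an ES cell channel that was not above background on any array. That probe gave a measured ratio of -1.47 ± 0.075 but a lower limit of only 1.82-fold, under the fold minimum, so a 2-fold difference is not shown by it.

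The promoters of Nr0b1, Nr5a2 and Nr6a1 are shown because these receptors rose and because the windows hold the hexamer AGGTCA (or TGACCT on the other strand), the half-site that many receptors of this family recognise. The sequences come from RefSeq (GRCm38.p6) and run, on the strand of the gene, from 250 bases before to 50 bases after the start. The Nr0b1 window is chrX:86191525-86191824 on the plus strand, the Nr5a2 window chr1:136960399-136960698 and the Nr6a1 window chr2:38784466-38784765, both on the minus strand, with the half-sites in capitals. Nr5a2 and Nr6a1 have another window each, which does not hold the half-site and is not shown.
Nr0b1: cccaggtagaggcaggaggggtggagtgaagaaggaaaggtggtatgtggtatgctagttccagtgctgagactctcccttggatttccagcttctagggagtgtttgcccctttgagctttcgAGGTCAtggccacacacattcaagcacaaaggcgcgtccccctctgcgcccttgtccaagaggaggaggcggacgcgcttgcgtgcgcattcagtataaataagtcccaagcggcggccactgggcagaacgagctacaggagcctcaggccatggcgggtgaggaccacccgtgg
Nr5a2: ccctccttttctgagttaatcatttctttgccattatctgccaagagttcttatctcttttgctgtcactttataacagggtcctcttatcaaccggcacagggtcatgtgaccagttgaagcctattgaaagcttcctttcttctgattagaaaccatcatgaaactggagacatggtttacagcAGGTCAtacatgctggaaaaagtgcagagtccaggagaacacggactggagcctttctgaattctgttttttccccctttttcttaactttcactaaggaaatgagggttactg
Nr6a1: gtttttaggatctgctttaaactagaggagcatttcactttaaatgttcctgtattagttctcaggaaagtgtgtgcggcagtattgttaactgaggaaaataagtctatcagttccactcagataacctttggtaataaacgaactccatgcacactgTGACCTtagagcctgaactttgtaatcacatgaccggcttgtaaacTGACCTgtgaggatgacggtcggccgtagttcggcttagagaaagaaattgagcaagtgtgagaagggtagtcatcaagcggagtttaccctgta
The Nr0b1 half-site lies at -126 to -121 from the start, and that of Nr5a2 at -64 to -59. Those of Nr6a1 lie at -91 to -86 and at -45 to -40, and the first of these is part of the longer form AAGGTCA, read as TGACCTT on this strand, which orphan receptors such as Esrrb and Nr5a2 bind as monomers. A search of both strands found AGGTCA in 11 of the 42 receptor genes with a promoter entry, among all genes in 18.1%. Esrrb and Hnf4a, which also rose, have promoter windows without it. Nr1d2, Pparg, Rxra and Thrb, which were called lower by their brightest probes, hold it, so the half-site is not confined to receptors that rose. Whether it is more frequent among the receptors that rose was not tested. The longer form, each match of which also counts as a match of AGGTCA, was found in 3 receptor genes (Nr6a1, Rxra and Rxrg) and in 5.38% of all genes. A match is a description of letters and shows no binding.

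Hnf4a, a receptor of liver, gut and visceral endoderm, was called higher, but its probes disagreed. Its brightest probe gave 569.5, 665 and 643 in ES cells, against 93.3, 78.4 and 92.4 in MEF. The MEF channel was not well above background on any array, so only a lower limit can be given. Here and below, such a limit sets the mean of the brighter channel against the dimmest detected probe of the other channel on each array, or against the gene's own dim signal where that is higher. On this scale Hnf4a was at least 6.28-fold higher in ES cells, with a log2 ratio of 2.83 ± 0.24 as measured (limma adjusted p = 2.03e-05). Measured ratios of genes with 1 channel at background depend on the background correction: with the scanner software's processed signals they were 5.79 for Hnf4a, -5.14 for Nr2f1, -3.73 for Thrb and -3.46 for Esr1. Ppara, detected in ES cells on 2 arrays, stood at -1.89 with the processed signals. A second probe was above background in both channels, with 240.3, 207 and 215 in ES cells, against 262, 238 and 249 in MEF. It was slightly lower in ES cells on each array, with a log2 ratio of -0.18 ± 0.048. The last probe was not above background in either channel.

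The Hnf4a probes are shown by their first 30 of 60 bases because their positions in the gene differ. By the array's own coordinates (mm7, plus strand, chromosome 2), the undetected probe lies at chr2:163293456-163293515, the second at chr2:163311219-163311278 and the brightest at chr2:163313228-163313287.
Hnf4a, undetected probe: ccgacaatgtgtggtagacaaagataagag
Hnf4a, second probe: ctggactcctctcaagttgaagtcatcgtc
Hnf4a, brightest probe: tattacagtacagggaacatggaataaagg
The second and brightest probes start 2009 bases apart, and the undetected one starts 17763 bases before the second. The array files name the gene but not the exon of each probe, and no annotation of that build was used here. The call for Hnf4a therefore rests on 1 probe of 3.

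Among the retinoic acid receptors only Rarb was called. Rarb, itself a textbook target gene of retinoic acid, had signals of 191, 173 and 184 in ES cells, against 2021, 2049.6 and 2088 in MEF. The channels were separate on every array. Its level was 11.2-fold lower in ES cells, with a log2 ratio of -3.49 ± 0.082 (limma adjusted p = 5.07e-07). The probe was spotted 10 times on each array, and single spots ran from -3.73 to -3.09, with SDs within an array of 0.098 to 0.121. Thus no single spot came near a ratio of 0. The ubiquitous receptor Rara stood at -0.17 ± 0.044 and Rarg at -0.25 ± 0.0022, both uncalled. A second Rarb probe was not above background in ES cells on any array and in MEF on 2 of 3, and it was not tested.

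The Rarb promoter is shown because this receptor had the lowest ratio among the retinoid receptors and because its promoter is the standard example of a retinoic acid response element. That element, searched as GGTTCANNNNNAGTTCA on both strands, is in capitals in the RefSeq window (GRCm38.p6, chr14:16575427-16575726, minus strand, 300 bases read along the gene).
Rarb: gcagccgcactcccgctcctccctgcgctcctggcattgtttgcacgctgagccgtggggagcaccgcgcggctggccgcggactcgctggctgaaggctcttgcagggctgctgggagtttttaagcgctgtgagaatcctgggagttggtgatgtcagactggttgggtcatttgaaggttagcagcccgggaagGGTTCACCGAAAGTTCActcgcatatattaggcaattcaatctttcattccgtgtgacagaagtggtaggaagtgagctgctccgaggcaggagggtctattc
The element lies at -53 to -37 from the start and reads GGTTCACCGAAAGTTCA. Of 32851 promoter windows 2 held the searched letters, or 0.006%, and no other receptor of the family did. The search used the letters of the known Rarb element, so the match in Rarb is no test. Response elements with other letters or spacing were not searched, and their share is not known from this count. The letters do not contain the half-site AGGTCA.

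Of the RXR, which receive the signals of most partner receptors, Rxra was called lower by its brightest probe. That probe gave 4172, 4009 and 4134 in ES cells, against 16432, 16071 and 16431 in MEF. The log2 ratio was -1.99 ± 0.013, or 3.97-fold lower in ES cells (limma adjusted p = 2.08e-07). The other Rxra probe pointed the other way on every array, with 1555, 1592 and 1592 in ES cells, against 571, 554 and 594 in MEF. Its log2 ratio was 1.46 ± 0.053, and tested among all 29458 probes it was called higher (limma adjusted p = 1.82e-06). Each probe was above background in ES cells and in MEF on every array, and the direction for Rxra depends on the probe. The mean of both probes was -0.26, under the fold minimum. Rxrb stood at -0.33 ± 0.019 and Rxrg at 0.44 ± 0.037, neither of them called. Rxrg was the uncalled receptor nearest to the fold minimum on the high side, with signals of 209, 237 and 242 in ES cells, against 155, 178 and 173 in MEF.

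The first 30 bases of both Rxra probes are shown because they gave opposite calls for 1 gene. The dimmer probe lies at chr2:27767107-27767166 and the brightest at chr2:27770202-27770261 on the plus strand (mm7), and their starts are 3095 bases apart.
Rxra, dimmer probe: gtccttatgggcccaaaagatgcatcacca
Rxra, brightest probe: aagaaacaacaacatgagaggagagacaaa
Both probes carry the same RefSeq accession of Rxra in the array files. Which transcripts each probe detects was not analysed here.

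The NR2 group holds the COUP factors, orphan receptors of mesenchyme and nervous system that compete with retinoid receptors for DNA, and the testis receptors. Nr2f2 (COUP-TFII) had the lowest ratio of the whole family. Its signals were 1491, 1746 and 1417 in ES cells, against 19232, 18598 and 18534 in MEF. The second array was the highest in ES cells, yet far below every MEF value. The level was 12.2-fold lower in ES cells (log2 -3.60 ± 0.17, limma adjusted p = 2.86e-06), and a second tested probe gave -2.88 ± 0.12. Nr2f1 (COUP-TFI) gave 90.8, 90.6 and 80.8 in ES cells, where it was not above background on any array, against 444, 497 and 443 in MEF. Its level in ES cells was lower by at least 4.22-fold, with a measured log2 ratio of -2.40 ± 0.096. Nr2f6, the third member of this subgroup, fell by 1.49 on the log2 scale. All 3 COUP-related receptors of the list thus fell.

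The testis receptors Nr2c1 (TR2) and Nr2c2 (TR4), which form a dimer known as a repressor of embryonic globin genes, were not called, and their probes differed in sign. The brightest Nr2c1 probe gave 1970.3, 2002 and 1967 in ES cells, against 3033, 2986 and 2901 in MEF, a log2 ratio of -0.59 ± 0.032. A second probe gave -0.47 ± 0.043. The third, with 352, 341 and 353 in ES cells, against 260.1, 242 and 241 in MEF, gave 0.49 ± 0.057. Each probe was of 1 sign on all arrays. For Nr2c2 the brightest probe had 936, 967 and 967 in ES cells, against 1200.5, 1205 and 1228 in MEF, or -0.34 ± 0.021. Its other probe had 951, 908 and 928 in ES cells, against 605, 549 and 595 in MEF, or 0.67 ± 0.046, and the mean of both was 0.17. No direction can be given for either gene from these probes.

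**Figure D2:**
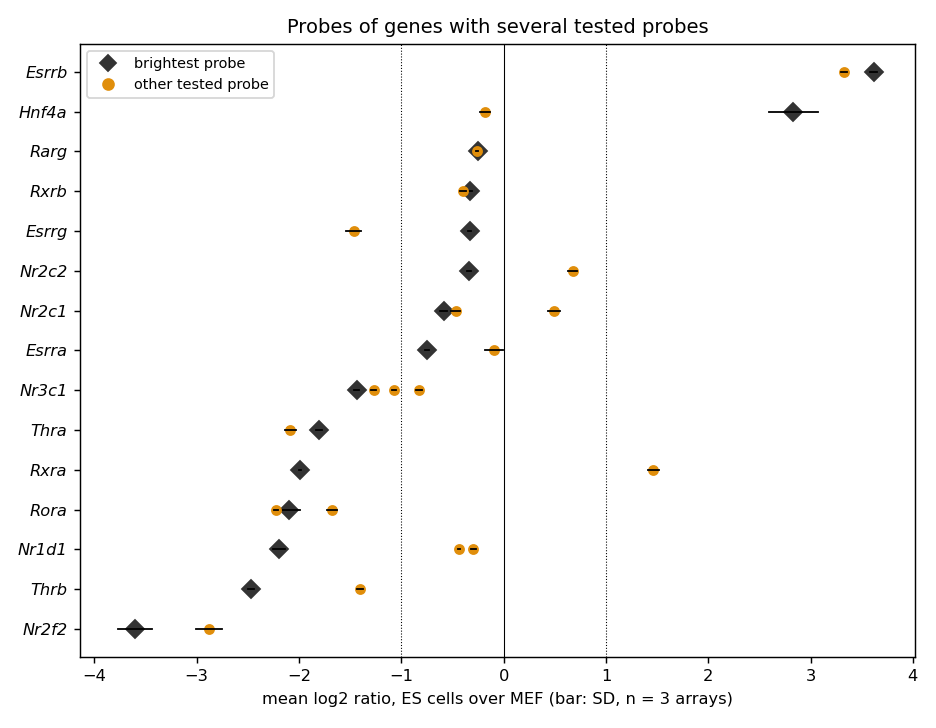
Mean log2 ratio of ES cells over MEF (x axis) for every tested probe of the 15 receptor genes with several tested probes (rows). Black diamonds are the brightest probe of each gene, orange circles its other tested probes, horizontal bars the SD over 3 arrays, and dotted lines the 2-fold change. The probes of Rxra lie on opposite sides at -1.99 and 1.46, those of Hnf4a at 2.83 and -0.18, and those of Nr3c1 all lie between -1.44 and -0.83.

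Of the other RXR partners, the thyroid hormone receptors, which repress or activate targets according to their ligand, both fell. Thra had signals of 6021, 5753 and 5527 in ES cells, against 20536, 20369 and 19470.4 in MEF. The channels did not overlap, the level was 3.49-fold lower in ES cells (log2 -1.80 ± 0.029, limma adjusted p = 4.00e-07), and the other probe gave -2.08 ± 0.051. Thrb had 121, 119 and 118 in ES cells, not above background on any array, against 657, 674 and 649 in MEF. ES cells thus had an at least 5.46-fold lower level, with a measured log2 ratio of -2.47 ± 0.030. A second tested probe of Thrb gave at least 1.85-fold lower, and a pair of further probes was not tested.

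The PPAR, receptors for fatty acids and their derivatives, divided. Pparg, the regulator of adipocyte formation that is also active in macrophages, had signals of 454, 451 and 451 in ES cells, against 2626, 2696 and 2694 in MEF. These values did not overlap, and the level was 5.91-fold lower in ES cells (log2 -2.56 ± 0.028, limma adjusted p = 2.09e-07). The leukocyte and macrophage markers, 9 of 10 of them, were lower in ES cells as well, and their part in the ratio of Pparg was not tested. Ppara, which drives fatty acid oxidation, had 144, 139.6 and 139.3 in ES cells, against 309.6, 316 and 304 in MEF. Its log2 ratio of -1.14 ± 0.038 was the nearest to the fold minimum among the called receptors (limma adjusted p = 1.96e-06), and the ES cell channel was above background on 2 of 3 arrays. Ppard, the most widely expressed of the 3, was the only tested receptor without an adjusted p under 0.05. Its signals were 105, 204 and 149 in ES cells, against 118, 183 and 165 in MEF, so the channels overlapped. The log2 ratio was -0.048, with a 95% interval from -0.26 to 0.17 and a limma adjusted p of 0.569.

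Of the remaining RXR partners, the vitamin D receptor Vdr fell by 1.25 on the log2 scale (SD 0.050, limma adjusted p = 2.68e-06). The oxysterol receptors (LXR) were not called, with Nr1h3 at -0.71 ± 0.052 and Nr1h2 at -0.24 ± 0.0095. The value of Nr1h2 changed sign, to 0.038, when arrays were centred on the median in place of loess. The xenobiotic receptor Nr1i3 (CAR) stood at 0.090 ± 0.035. Its relative Nr1i2 (PXR) and the bile acid receptor Nr1h4 (FXR), both receptors of liver and gut, were at background on every array.

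The receptors tied to the circadian clock were all lower in ES cells where tested. Nr1d1 and Nr1d2 (Rev-erb alpha and beta) repress clock genes through the same sites at which ROR receptors activate them. Nr1d1 had 562, 537 and 564 in ES cells, against 2475, 2566 and 2589 in MEF, a 4.59-fold lower level in ES cells (log2 -2.20 ± 0.058, limma adjusted p = 7.71e-07). Rora had 786, 691 and 711 in ES cells, against 3077, 3064 and 3208 in MEF, or -2.10 ± 0.11. Neither pair of channels overlapped. The other Rora probes, at -2.22 ± 0.022 and -1.68 ± 0.047, were near the first one, whereas the other Nr1d1 probes gave only -0.30 ± 0.024 and -0.44 ± 0.011. With the mean of its probes, at -0.98, Nr1d1 was no longer called. Nr1d2 fell by 1.19 on the log2 scale (SD 0.016), and by 0.93, under the fold minimum, with median centring. Rorb was not tested, since its MEF channel was above background on 2 of 3 arrays only.

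The first 30 bases of the brightest Nr1d1 probe and of the other probe with the same accession are shown because they differ in ratio by more than the fold minimum. The brightest lies at chr11:98878251-98878753 on the minus strand (mm7). Its 60 bases cover 503 bases of the genome, so it joins stretches that lie apart in the genome. The other lies at chr11:98881057-98881116.
Nr1d1, brightest probe: ggcacctttgaggtgctgatggtgcgcttt
Nr1d1, other probe: agtccctctacagtgacagctccaatggca
In RefSeq the ranges of Nr1d1 and Thra overlap on chromosome 11, and both genes were lower in ES cells by their brightest probes.

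Several receptor genes are neighbours, in paired groups that are known to descend from an ancient duplication. On chromosome 11 Thra overlaps Nr1d1, and 5 protein-coding genes lie between Nr1d1 and Rara in RefSeq. On chromosome 14 no protein-coding gene lies between Rarb and Thrb, and 1 lies between Thrb and Nr1d2. By their brightest probes all 3 receptors of chromosome 14 fell, at -3.49 for Rarb, -2.47 for Thrb and -1.19 for Nr1d2. With median centring Nr1d2 was under the fold minimum. On chromosome 11 Thra and Nr1d1 fell by their brightest probes, at -1.80 and -2.20, while Rara was not called at -0.17. The other Nr1d1 probes gave only -0.30 and -0.44. The neighbours Nr5a1 and Nr6a1 on chromosome 2, with no protein-coding gene between them, stood at -0.16 and 2.29. Sharing a neighbourhood thus did not go with 1 common ratio.

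**Figure D3:**
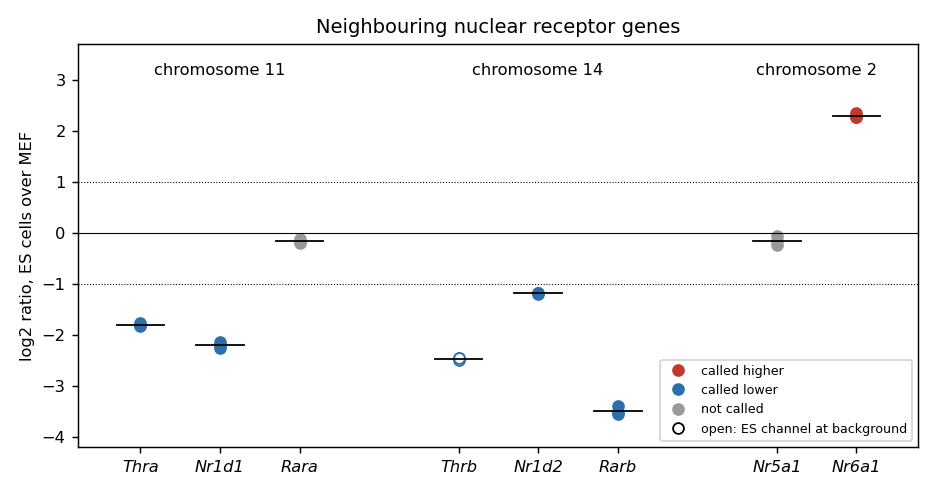
Log2 ratio of ES cells over MEF (y axis) for neighbouring nuclear receptor genes on chromosomes 11, 14 and 2, by the brightest probe of each. Points are the 3 arrays, lines their mean, and open points a gene whose ES cell channel was not above background. All 3 genes of the chromosome 14 group lie below the 2-fold line, while Rara at -0.17 stands above its neighbours at -1.80 and -2.20.

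Of the steroid receptors, the glucocorticoid receptor Nr3c1 fell by 1.44 on the log2 scale (SD 0.024, limma adjusted p = 5.36e-07), and all 4 of its probes were lower in ES cells, from -1.44 to -0.83. By its brightest probe, the estrogen receptor Esr1 was not above background in ES cells on any array. It was at least 2.40-fold lower there, with a measured log2 ratio of -1.45 ± 0.084. Its other probe was not above background in either channel on any array, so the call for Esr1 rests on 1 of 2 probes. The mineralocorticoid receptor Nr3c2 was uncalled at -0.22 ± 0.027. The second estrogen receptor Esr2 and the progesterone receptor Pgr were not above background in either channel on any array. Esr2 was spotted 10 times, and its spots lay between -0.12 and 0.22.

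The NR4A receptors are immediate early genes that respond within a short time to serum and stress signals and have no known natural ligand. Nr4a2 (Nurr1) had 719.5, 708 and 717 in ES cells, against 4902, 4941 and 4934 in MEF. The values were tightly grouped in each channel, and the level was 6.89-fold lower in ES cells (log2 -2.79 ± 0.018, limma adjusted p = 1.72e-07). Nr4a1 (Nur77) fell by 1.39 on the log2 scale (SD 0.018). Nr4a3 was not tested.

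**Figure D4:**
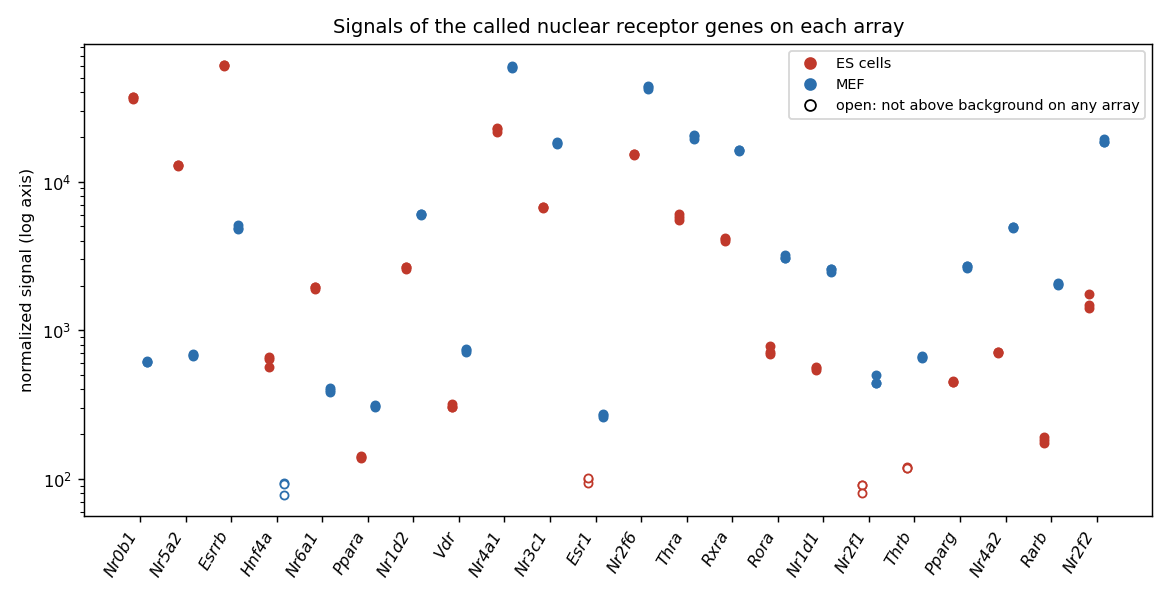
Normalized signal (y axis, log scale) of the 22 called receptor genes in ES cells (red, left of each pair) and MEF (blue, right) on each of 3 arrays. Open points are channels not above background on any array. Signals of different probes are not comparable with each other. These genes were chosen by a change of at least 2-fold, so the separation of ES cell points from MEF points largely follows from that choice. For Rarb, for example, the points lie at 173 to 191 against 2021 to 2088.

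The 10 receptors that were not tested were Rorb, Hnf4g, Pgr, Nr1h4, Esr2, Nr0b2, Nr4a3, Nr2e1, Nr1i2 and Nr2e3. They include receptors known from liver, retina, brain and the reproductive tract. Nr0b2 (Shp), like Nr0b1 a receptor without a DNA-binding domain, had signals of 131, 125 and 121 in ES cells, against 119, 131 and 117 in MEF. The channels overlapped and neither was above background on any array, so the contrast between the 2 NR0 members was not tested. Of these 10 receptors, the arrays allow no statement on direction.

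Receptors act through coregulators. Of 16 coactivators, all tested, 2 rose and 1 fell, where 20.4% of all tested genes were called higher and 22.5% lower. Their median log2 ratio was 0.22, against -0.050 for all tested genes. The p160 coactivator Ncoa3 rose by 1.55 ± 0.014 and Pprc1 by 1.38 ± 0.022, whereas Ppargc1a, a coactivator of mitochondrial and oxidative genes, was not above background in ES cells and at least 3.89-fold lower there. A dimmer probe of Ppargc1a that was above background in ES cells and in MEF gave -0.67, under the fold minimum. Of 10 corepressors tested, none rose and 2 fell, a share near the 22.5% of all tested genes, with a median of -0.48. Those that fell included the ligand-dependent corepressor Nrip1 at -1.09 ± 0.018. It was under the fold minimum at -0.90 with the mean of its probes and at -0.83 with median centring. Zfp366 was not matched to a probe.

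Genes that make, carry and break down retinoic acid or respond to it included 9 that fell and 1 that rose among 16 tested, with a median of -1.58, where 22.5% of all tested genes were called lower and 20.4% higher. Dhrs3, a retinaldehyde reductase, fell by 4.70 and the retinoic acid-producing dehydrogenase Aldh1a1 fell by 3.65 on the log2 scale. Stra8, the retinoid-responsive gene of germ cells entering meiosis, rose by 2.67 ± 0.056. Hoxb1 was not tested. Among target genes of other receptors 4 of 21 rose, a share near the 20.4% of all tested genes, and 9 fell, where 22.5% of all tested genes did, with a median of -0.71. The glucocorticoid-responsive genes Sgk1 and Fkbp5 rose by 1.97 and 1.58, while Tsc22d3, also responsive to glucocorticoids, fell by 2.55 and Per1 was uncalled at -0.71. The LXR targets Abca1, a cholesterol exporter, and Mylip, which degrades the LDL receptor, fell by 3.17 and 3.09, while the LXR targets Abcg1 at -0.0058, Lpcat3 at -0.58 and Srebf1 at -0.97 were not called. Tsc22d3, Per1, Abcg1, Lpcat3 and Srebf1 were named after their values were seen. Zbtb16 was not matched, and Cyp24a1 and Dio1 were not tested.

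**Figure D5:**
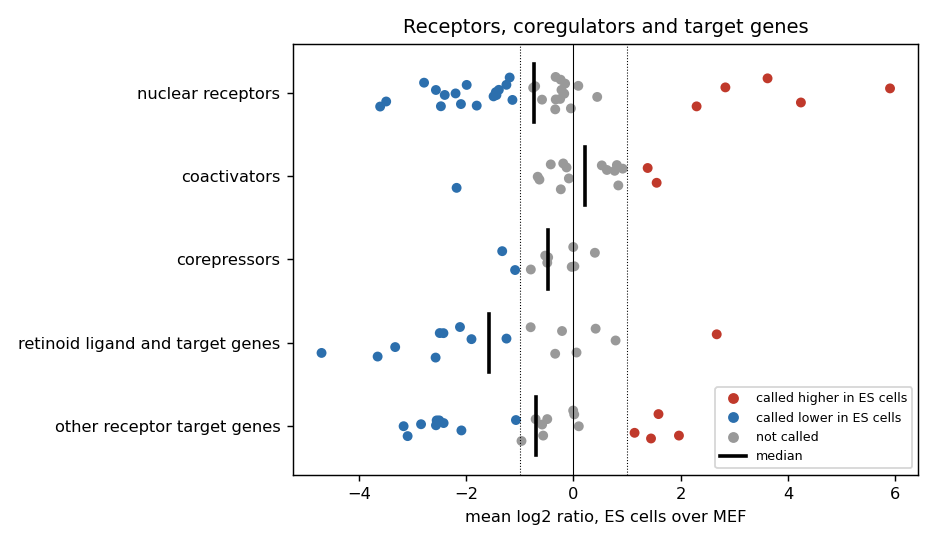
Mean log2 ratio of ES cells over MEF (x axis) for the tested nuclear receptors and for lists of their coregulators and target genes (rows). Each point is 1 gene, red where called higher, blue where called lower and grey where not called, black bars are medians and dotted lines the 2-fold change. The receptors spread from -3.60 to 5.90. Not called were 14 of 36 receptors, 13 of 16 coactivators and 8 of 10 corepressors, where 42.8% of all tested genes were called in either direction.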

How the data were processed

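The arrays compared RNA of 3 ES cell replicates (Cy3) with MEF RNA (Cy5), per the labels. The design text once gives the Cy5 RNA a name other than MEF, where the labels of the samples were preferred. The authors used Agilent Feature Extraction 9.5.3.1 and probe coordinates on mm7, per the file headers. The deposited intensity values used here are mean spot brightness and median local background, not background-subtracted. Deposited processed intensities, used as an alternative, are background-subtracted and dye-normalized, and the deposited log10 ratio is MEF over ES cells, per the file headers. The authors' deposited log2 value table came within 0.01 of the sign-turned scanner ratio for 85.4% to 87.8% of probes and so runs ES cells over MEF; its column medians were 0.213, 0.0859 and -0.143, so it is not centred, and the treatment of the other probes is unknown. The arrays shared 1 slide and 1 scan, which leaves no batch to test.

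Intensities were corrected with normexp (offset 50, which shrinks ratios of dim probes) and normalized by loess within each array in limma 3.58.1 under R 4.3.3, with control spots at weight 0. Outlier spots (117 to 144 per array) were dropped and spots of a probe averaged. Mean log2 ratios were tested against 0 (lmFit, eBayes). Channel signals were scaled with Aquantile after loess. The number of arrays limits the precision. Of the 79 receptor probes, 60 carry an accession to which RefSeq gives the same symbol, and 0 one with another symbol. Members and lists were chosen with earlier results of these data known. All 46 receptors may be named; values by array are given for called receptors with the 10 highest and 10 lowest ratios, for those whose probes disagree in sign and for those nearest to the fold minimum; of each list of related genes the 2 highest and 2 lowest called are named, except 1 gene that is not reported here. Arrays of this comparison were also simulated (29458 probes, 50 changed per size). At true log2 ratios of -3, -1.5, 1.5 and 3, the direction was called correctly for 50, 49, 46 and 50 probes. The 29258 probes left without a change gave 0 calls. That 0 is no estimate of false calls in the data, where a dye bias for a single probe stays in each ratio. Few probes changed in the simulation, while 42.8% of all tested genes were called in the data. Normalization under such wide change was therefore not tried.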

Additional observations from a re-analysis of the deposited data

How the results depend on the processing

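Across 13 alternatives other than another fold minimum, 29 of the 36 tested receptors kept their sign and their side of the threshold wherever tested. The other 7 (Hnf4a, Nr1d1, Nr1d2, Nr1h2, Nr2c2, Ppard and Rxra) did not under at least 1. Only 31 receptors were tested with both channels required above background, and Nr2f1, Esr1, Thrb, Ppara and Ppard dropped out there. The 13 are not independent, since processed signals and the authors' deposited table each gave 5123 genes higher and 4679 lower. Keeping outlier spots gave the main counts. The sign turned for Hnf4a (-0.18, requiring both channels above background, which selects another probe), Nr1h2 (0.038, median centring), Nr2c2 (0.17, mean of probes) and Ppard (from -0.15 to 0.011 when each replicate is left out in turn, 0.011 without replicate 1). Median centring moved the median of all genes by 0.16. Without a fold minimum 28 receptors were lower, and 8 with a minimum of 4-fold; over all genes these settings gave 8947 higher and 9645 lower, and 1314 higher and 1871 lower. Coactivators called higher numbered 4 with processed signals, 4 with the authors' deposited table, 6 with median centring, 8 without a fold minimum and 0 at 4-fold; those called lower numbered 0 with both channels required and 8 without a fold minimum. Corepressors called lower numbered 1 with median centring, 1 with the mean of probes, 6 without a fold minimum and 0 at 4-fold, and 1 was higher without a fold minimum. Retinoid genes called higher numbered 2 with processed signals, 2 with the deposited table, 2 with median centring and 4 without a fold minimum. Other target genes numbered 0 higher at 4-fold and 14 lower without a fold minimum. For changes not explained by the fold minimum or the probe chosen, the cause was not tested. Leaving out each replicate gave 5 receptors higher and 17 lower each time. The test already pairs ES cells with MEF, since it uses ratios within arrays, and no further block by replicate can be added. Dim signal limits Hnf4a, Nr2f1, Esr1, Thrb and the 10 untested receptors.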

Other observations

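Nr4a3, which was not tested, was bright on 1 array in both channels. Its signals were 168, 75.4 and 80.8 in ES cells, against 138, 75.3 and 76.2 in MEF, and the first array was the only one on which either channel was well above background. Ppard was highest on the second array in both channels. Over the 204 tested probes with 10 or more spots an array, array means had a median SD of 0.0159, and the spread of spots alone would give 0.0150. For receptors spotted 10 times, the array means were -2.53, -2.58 and -2.58 for Pparg, and -1.40, -1.54 and -1.40 for Esr1.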
